A study of Mus musculus with 4 samples.

Results

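The 10 claudins described here were *Cldn1*, *Cldn2*, *Cldn3*, *Cldn4*, *Cldn5*, *Cldn7*, *Cldn8*, *Cldn10*, *Cldn16*, and *Cldn19*, chosen by name as the family members with known places along the nephron, collecting duct, and glomerulus, out of 31053 genes in the count matrices. Their transcripts were counted by single-nucleus RNA-seq in kidneys of 4 male mice aged 12 weeks, with 1 library per mouse. The 2 control mice carried the floxed *Tfap2a* alleles without Cre (Tfap2a fl/fl), and the 2 knockout mice were Hoxb7Cre+;Tfap2a fl/fl. In the floxed alleles loxP sites surround an inner stretch of exons of *Tfap2a*, which encodes an AP-2 transcription factor, and Hoxb7Cre acts in the ureteric bud lineage, so that the gene is deleted in collecting ducts and lower urinary tract epithelium while the nephron segments keep it. The tissue was a middle slice of the kidney with cortex trimmed away, which enriches for medulla, so that the mix of nuclei is not that of the whole organ.

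Claudins are 4-pass membrane proteins of the tight junction, the seal between neighbouring epithelial cells, and the set of claudins in a segment decides which ions pass between its cells. *Cldn2* forms the cation and water pore of the leaky proximal tubule. *Cldn10* is transcribed from alternative starts, one giving an anion pore found mainly in the proximal tubule and the other the sodium pore of the thick ascending limb, where *Cldn16* and *Cldn19* together serve calcium and magnesium reabsorption. *Cldn3*, *Cldn4*, *Cldn7*, and *Cldn8* belong to the tighter distal segments, *Cldn5* is the claudin of blood vessel endothelium, and *Cldn1* marks the parietal epithelium of Bowman capsule.

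The promoters of *Cldn10* and *Cldn16* are printed because those genes had opposite patterns within the thick ascending limb. They are RefSeq sequences on GRCm38.p6, plus strand, and run from 250 bases before to 50 bases after the annotated start. Capitals mark a match to GCCNNNGGC, the core of AP-2 binding sites, which is its own reverse complement and so reads the same on both strands. The upstream *Cldn10* start lies in chr14:118787621-118787920 and the downstream start in chr14:118854700-118854999, and *Cldn16* lies in chr16:26462885-26463184.
Cldn10 upstream start: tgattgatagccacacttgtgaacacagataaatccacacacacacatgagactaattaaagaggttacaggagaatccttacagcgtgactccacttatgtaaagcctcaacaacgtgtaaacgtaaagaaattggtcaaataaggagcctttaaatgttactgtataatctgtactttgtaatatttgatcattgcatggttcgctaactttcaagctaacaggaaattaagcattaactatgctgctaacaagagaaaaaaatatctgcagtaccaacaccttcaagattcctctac
Cldn10 downstream start: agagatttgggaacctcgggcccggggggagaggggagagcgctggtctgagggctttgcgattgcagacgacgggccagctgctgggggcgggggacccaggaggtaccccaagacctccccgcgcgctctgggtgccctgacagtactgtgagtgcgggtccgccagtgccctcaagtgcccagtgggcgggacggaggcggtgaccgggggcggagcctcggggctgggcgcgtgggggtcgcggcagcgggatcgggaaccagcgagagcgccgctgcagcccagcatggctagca
Cldn16: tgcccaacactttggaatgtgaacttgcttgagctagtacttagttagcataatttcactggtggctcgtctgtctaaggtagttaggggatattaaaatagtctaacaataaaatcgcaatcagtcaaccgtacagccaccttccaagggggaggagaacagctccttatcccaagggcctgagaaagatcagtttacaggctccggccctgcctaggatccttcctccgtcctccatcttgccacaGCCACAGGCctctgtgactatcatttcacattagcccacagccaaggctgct
The *Cldn10* starts differed in base composition, with 36.0% GC for the upstream window and 72.0% GC for the downstream window, against 48.7% for *Cldn16*. Neither *Cldn10* window held GCCNNNGGC. In *Cldn16* the match began 2 bases before the start, so that it crossed the start itself. The same 9 letters were found in *Cldn3*, in chr5:134985964-134986263 on the plus strand, 23 bases after the start.
Cldn3: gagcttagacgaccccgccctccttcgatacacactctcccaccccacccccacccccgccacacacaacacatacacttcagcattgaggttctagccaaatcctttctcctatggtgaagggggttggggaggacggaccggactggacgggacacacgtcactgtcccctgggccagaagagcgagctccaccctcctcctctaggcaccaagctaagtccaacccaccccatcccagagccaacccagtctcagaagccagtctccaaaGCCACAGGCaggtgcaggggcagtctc
RefSeq gave 12 promoter windows for 9 of the 10 claudins, all but *Cldn8*, and 2 of the 12 held the motif. Over all 32851 windows of the same length in the table, 16.6% held it. A match describes letters in the window and not a bound site.

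A single matrix listed 6794880 barcodes. Over the 4 libraries 27343 barcodes passed the nucleus filters, 7738 and 5430 of them control and 7998 and 6177 knockout nuclei. Total counts per library ranged from 22179410 to 44964099 unique molecular identifiers (UMIs, molecules counted once), and the median nucleus held 2506 to 2797. Clusters were assigned to 12 broad classes from marker genes, with claudin genes left out of the clustering, and 25193 nuclei (92.1%) stood in a named class. The names were rebuilt from markers, so that each class is like the cell type it is named for. The other nuclei lay in clusters with a damaged profile (1042), with markers of several classes (935), or without enough markers for a name (173). In total 75 barcode sequences occurred in more than 1 library. *Tfap2a* UMIs in principal cells gave 56.8 and 98.8 CPM (UMIs per 1000000 UMIs of the class) in the control mice, against 65.9 and 106 CPM in the knockout mice. A 3′ count can come from transcripts that lack the deleted exons, so these values do not check the deletion. Levels below are CPM of the summed counts of a class in 1 mouse, and they are compared between classes for 1 gene at a time, because they are not scaled by transcript length.

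The claudins differed in where they were highest, and 5 of the 10 (*Cldn3*, *Cldn4*, *Cldn5*, *Cldn10*, and *Cldn16*) were highest in the same class in all 4 mice. The proximal tubule held *Cldn2* and *Cldn10*, the thick ascending limb *Cldn10*, *Cldn16*, and *Cldn19*, and principal cells *Cldn8*, *Cldn7*, and *Cldn4* as the members over 50 CPM, apart from *Cldn10* counts near the background described below. The number of members over 10 CPM in the mean of the control mice was lowest in the proximal tubule (2). It reached 7 in principal cells, connecting tubule, thick ascending limb, and thin limb. This count depends on class depth and does not rank the classes. In immune cells, with 5 members over 10 CPM, 1 UMI alone gave 23.1 and 29.1 CPM in the control mice. Levels by class are a description of 2 control mice, with the knockout mice given beside them, and no test was made between classes.

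**Figure D1:**
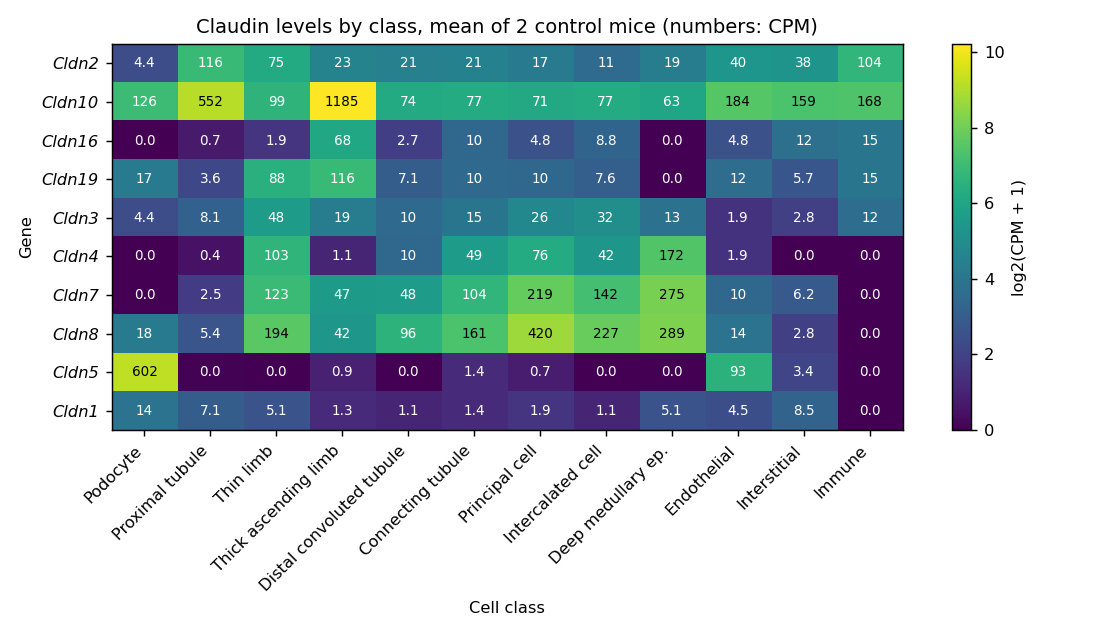
Heat map of the 10 claudins (rows) in the 12 broad cell classes (columns). Color is log2(CPM + 1) and the printed number is the mean CPM of the 2 control mice. *Cldn5* stands at 602 in podocytes, *Cldn10* at 1185 in the thick ascending limb, and *Cldn8* at 420 in principal cells.

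*Cldn2*, the paracellular cation and water pore (chrX:139800808-139811386 in the RefSeq annotation of GRCm38.p6, as for all gene positions here), stood at 113 and 120 CPM in the proximal tubule of the control mice and 124 and 118 CPM in that of the knockout mice. A *Cldn2* UMI was found in 30.9% of 13807 proximal tubule nuclei (median depth 3192 UMIs) against 4.18% of thick ascending limb nuclei (median depth 1960). The control mean of 116 ± 4.52 CPM (SD, n = 2) was followed by immune cells, whose values overlapped it but rested on 12 UMIs in 4 mice, and then by the thin limb. The thin limb held 92.1 and 57.1 CPM in the control mice and 135 and 46.6 CPM in the knockout mice, an uneven level within each genotype. Along the proximal tubule the *Cldn2* level was graded in the control mice. It was 129 and 135 CPM in S1-like nuclei, 113 and 127 CPM in S2-like nuclei, and 93.3 and 103 CPM in S3-like nuclei. S1-like exceeded S3-like in each of the 4 mice, with 139 against 102 and 123 against 110 CPM in the knockout mice. The proximal tubule cluster with a damaged profile held more *Cldn2* than any of these segments in every mouse, at 196 and 349 CPM in the control mice and 226 and 242 CPM in the knockout mice. These values rest on 222 UMIs over the 4 mice, few of them from control mouse 2 and knockout mouse 2. RNA outside nuclei held 118 to 179 CPM of *Cldn2*.

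*Cldn10* (chr14:118787871-118874525) was the member with the most molecules, 38340 UMIs in nuclei, and its reads at the shared 3′ end do not tell the anion-pore from the cation-pore isoform. It stood at 1445 and 926 CPM in the thick ascending limb of the control mice and at 490 and 614 CPM in the proximal tubule. The knockout mice held 1157 and 1054 CPM in the thick ascending limb and 436 and 346 CPM in the proximal tubule. Thick ascending limb values thus lay above proximal tubule values in all 4 mice. A UMI of *Cldn10* was present in 80.0% of thick ascending limb nuclei and 68.1% of proximal tubule nuclei, and in 12.9% to 20.95% of the nuclei of every other class. RNA outside nuclei, read from barcodes with few UMIs, held 609 to 866 CPM of *Cldn10*. How much of the like shares in the other classes is background was not tested. After subtraction of that free RNA the control mean in principal cells went from 70.5 to 17.9 CPM, while the proximal tubule stayed at 547 and the thick ascending limb at 1232 CPM. Endothelium (110 CPM), immune cells (148 CPM), interstitium (104 CPM), and podocytes (104 CPM) still held *Cldn10* after subtraction. The estimated free RNA share there was 9.17% and 0% in podocytes and 6.48% and 1.59% in immune cells of the control mice. In control mouse 2 the subtraction thus removed nothing from podocytes and little from immune cells, so those values do not show that background was removed. The remaining classes held 17.1 to 49.6 CPM. Within the proximal tubule *Cldn10* was 500 and 728 CPM in S1-like nuclei and 396 and 485 CPM in S3-like nuclei of the control mice, whereas in the knockout mice S1-like (411 and 363) and S3-like nuclei (412 and 301) overlapped.

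*Cldn16*, one of the divalent cation claudins (chr16:26463135-26482765), was nearly confined in these counts to the thick ascending limb, with 804 of its 1056 UMIs in nuclei of that class. Its level there was 62.1 and 73.0 CPM in the control mice and 92.4 and 74.0 CPM in the knockout mice. A UMI was found in 12.1% of thick ascending limb nuclei against 0.275% of proximal tubule nuclei, which were deeper. No UMI of *Cldn16* or *Cldn19* was seen in 221 nuclei of the deep medullary epithelium of the pelvis, which allows a share of up to 1.36%, counting error only.

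*Cldn19* (chr4:119255441-119262438), the partner of *Cldn16*, had a wider place. The thick ascending limb held 152 and 81.0 CPM in the control mice and 145 and 123 CPM in the knockout mice, and the thin limb held 60.7 and 116 CPM and 77.6 and 134 CPM. These ranges overlapped, and which of the 2 classes was higher differed between mice. All other classes had control means at or under 17.4 CPM. *Cldn16* was at most 15.5 CPM in the thin limb of any mouse, from 8 UMIs in all, so the thin limb held *Cldn19* with very little *Cldn16*.

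The thick ascending limb divided into an *Enox1*-low cluster of 3629 nuclei, an *Enox1*-high cluster of 1525 nuclei, and 35 nuclei with macula densa markers. *Enox1*, a marker of cortical thick ascending limb, stood at 13.3 and 1094 CPM in the first and second cluster. The other cortical markers listed were *Casr*, *Tmem207*, and *Kcnj10*, and they did not all go with *Enox1*. *Casr* (1011 CPM) was among the leading genes of the *Enox1*-high cluster, but *Tmem207* (544 CPM) was among those of the *Enox1*-low cluster. *Kcnj10* was among those of neither. *Cldn10* and *Cldn16* went opposite ways between them in every mouse. The *Cldn10* level went from 1776 to 733 and from 1088 to 516 CPM in the control mice, and from 1478 to 651 and from 1278 to 544 CPM in the knockout mice, going from the *Enox1*-low to the *Enox1*-high cluster. The *Cldn16* level over the same step went from 31.9 to 127 and from 37.7 to 164 CPM in the control mice, and from 45.4 to 170 and from 43.8 to 146 CPM in the knockout mice. For both genes the 4 values of one cluster lay apart from the 4 values of the other. On the log2(CPM + 1) scale the mean difference over 4 mice was -1.19 ± 0.0856 (SD) for *Cldn10* and 1.91 ± 0.155 for *Cldn16*, each with p = 0.13 in an exact two-sided sign-flip permutation test, the smallest p that 4 mice allow. These folds correspond to 2.28 times less *Cldn10* and 3.76 times more *Cldn16* in the *Enox1*-high cluster.

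**Figure D2:**
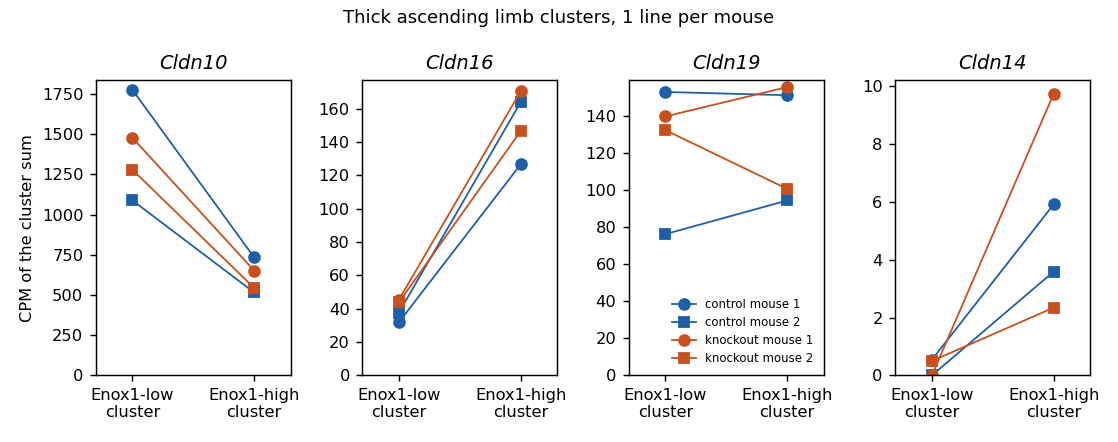
Levels of *Cldn10*, *Cldn16*, and *Cldn19* in CPM (vertical axis, from 0) in the *Enox1*-low and *Enox1*-high thick ascending limb clusters, 1 line per mouse. All 4 *Cldn10* lines slope down, all 4 *Cldn16* lines slope up, and the *Cldn19* lines go both ways.

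*Cldn19* did not follow *Cldn16*. Its mean log2 difference between the clusters was 0.01 ± 0.30 (n = 4 mice, exact permutation p = 1), with 2 mice up and 2 down. *Cldn3*, a barrier claudin, was lower in the *Enox1*-high cluster in 4 of 4 mice by -0.70 ± 0.39 (exact permutation p = 0.13). *Cldn3*, *Cldn10*, and *Cldn16* were the 3 members that moved the same way in all 4 mice. Without control mouse 2 the count was 5. *Cldn14*, which opposes the *Cldn16* and *Cldn19* pathway when calcium is high, is outside the 10 and had only 20 UMIs in the class, of which 5, 3, 8, and 2 lay in the *Enox1*-high cluster of control 1, control 2, knockout 1, and knockout 2, against 1, 0, 0, and 1 in the *Enox1*-low cluster.

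The same opposition was seen nucleus by nucleus. In the thick ascending limb, UMIs of both *Cldn10* and *Cldn16* were counted together in 91 and 99 control nuclei and in 90 and 104 knockout nuclei. Independent detection of the genes would have given 113, 129, 126, and 132 nuclei. Fewer nuclei than that held both genes in each of 4 mice, with odds ratios of 0.339, 0.355, 0.275, and 0.382. *Cldn10* was detected in 55.9% to 67.4% of nuclei with *Cldn16* and in 81.1% to 85.9% of nuclei without it. The mean log2 odds ratio was -1.58 ± 0.204 (SD, n = 4 mice, exact permutation p = 0.13). With every nucleus thinned to 1000 UMIs, which kept 5100 of 5189 nuclei, it was -1.11. Within the *Enox1*-high cluster alone it was -1.02 ± 0.28, negative in 4 of 4 mice, and within the *Enox1*-low cluster alone it was -0.81, negative in 3 of 4 mice (exact permutation p = 0.25).

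**Figure D3:**
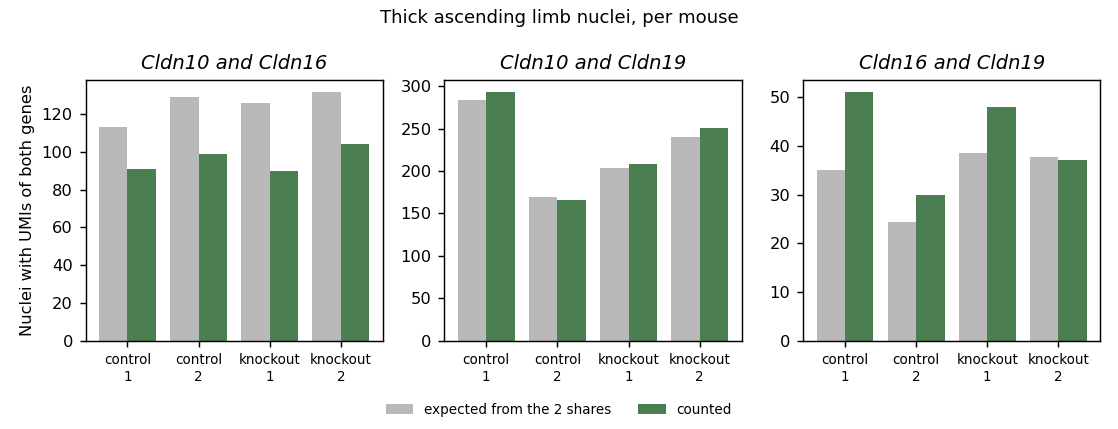
Number of thick ascending limb nuclei with UMIs of both genes of a pair (vertical axis) in each mouse, counted (green) and expected from each gene's share alone (grey). For *Cldn10* and *Cldn16* the counted bar is below the expected bar in all 4 mice, 91 against 113 in control 1.

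*Cldn16* and *Cldn19*, which act together in this segment, were detected together in 51 and 30 control nuclei and 48 and 37 knockout nuclei, against 35.0, 24.4, 38.5, and 37.6 expected. The counted number was above the expected one in 3 of 4 mice. Its mean log2 odds ratio of 0.46 ± 0.38 (n = 4 mice) had p = 0.25 in the exact permutation test. For *Cldn10* and *Cldn19* the value was 0.21 ± 0.26 (exact permutation p = 0.25).

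A cluster of 173 nuclei (19 and 106 in the control mice, 15 and 33 in the knockout mice) kept no class name, since it carried 4 of 8 thin limb markers but none among its 10 leading genes. It was led by *Psca* and *Lypd2*, with *Prox1* at 827 CPM. Its *Cldn10* level was 2660 and 2676 CPM in the control mice and 3319 and 3551 CPM in the knockout mice, above every broad class in each mouse, and 97.1% of its nuclei held a *Cldn10* UMI. *Cldn19* stood at 302 and 352 CPM and at 567 and 699 CPM, and *Cldn3* at 192 and 149 CPM and at 135 and 140 CPM. The thin limb cluster contrasted with it: *Cldn10* was 98.9 and 99.9 CPM there in the control mice and *Cldn8* was 200 and 189 CPM, against 27.4 and 3.56 CPM of *Cldn8* in the unnamed cluster. One cluster thus paired *Cldn10* with *Cldn19*, and the other held *Cldn4*, *Cldn7*, and *Cldn8* with *Cldn19*. *Fst* and *Bst1*, listed as descending thin limb markers, were among the leading genes of the thin limb cluster. *Prox1* is listed as an ascending thin limb marker. The other markers of both lists led neither cluster. Thin limb levels in this text are those of the named cluster and need not hold for the whole thin limb.

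*Cldn8*, a barrier and chloride pathway claudin of the distal nephron (chr16:88560826-88563183), was highest in principal cells in 3 of 4 mice, at 364 and 476 CPM in the control mice and 301 and 296 CPM in the knockout mice. In knockout mouse 1 deep medullary pelvic epithelium was higher, at 374 CPM (272 CPM in knockout mouse 2). The control mean of 420 ± 79.2 CPM (SD, n = 2) was followed without overlap by deep medullary epithelium of the pelvis (289 ± 15.95) and then by intercalated cells (227 ± 40.9). Intercalated cells and thin limb (194 ± 7.98) overlapped. Connecting tubule (161 ± 15.04) and distal convoluted tubule (95.5 ± 23.6) came next, each below its neighbour in both control mice. Within the collecting duct *Cldn8* was lowest in cortical nuclei. Principal cells with cortical markers held 101 and 175 CPM in the control mice, the *Aqp3*-high subcluster 518 and 538 CPM, and inner medullary principal cells 370 and 533 CPM.

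*Cldn7* (chr11:69964779-69967886), which lies mostly along the basolateral side of distal tubule cells, followed *Cldn8* closely. In the control mice deep medullary pelvic epithelium held 285 and 264 CPM, against 220 and 502 CPM in the knockout mice. Principal cells held 221 and 217 CPM in the control mice and 224 and 248 CPM in the knockout mice. Within principal cells the cortical nuclei held less *Cldn7*, 63.2 and 58.3 CPM in the control mice, than the *Aqp3*-high (302 and 224) or inner medullary ones (234 and 265). Intercalated cells came next, with 168 and 115 CPM in the control mice and 216 and 185 CPM in the knockout mice, and overlapped thin limb.

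*Cldn4* (chr5:134945123-134946934), which acts with *Cldn8* in the chloride pathway of the collecting duct, was highest toward the pelvis. Deep medullary epithelium of the pelvis held 206 and 139 CPM in the control mice and 169 and 211 CPM in the knockout mice, the thin limb 110 and 95.2 CPM in the control mice, and principal cells 77.9 and 74.6 CPM. These 3 classes did not overlap in the control mice. The *Cldn4* level was higher in inner medullary principal cells (93.2 and 102 CPM) than in the *Aqp3*-high subcluster (48.0 and 57.5 CPM) of the control mice. The proximal tubule, at 0.273 to 0.536 CPM in the control mice, had almost none.

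*Cldn3* (chr5:134986214-134987476), neighbour of *Cldn4* on the chromosome, was low in all classes and highest in the thin limb at 44.95 and 50.8 CPM in the control mice and 40.8 and 49.7 CPM in the knockout mice. Intercalated cells (32.1 ± 5.84), principal cells (26.0 ± 1.81), and thick ascending limb (19.2 ± 3.16) followed in the control mice with no overlap between neighbours. Type B intercalated-like nuclei held 33.3 and 70.4 CPM against 20.5 and 22.3 CPM in type A in the control mice, and 45.2 and 23.4 CPM against 29.1 and 17.8 CPM in the knockout mice. In the proximal tubule *Cldn3* was a gene of the last segment. S3-like nuclei held 20.8 and 17.3 CPM in the control mice and 18.6 and 18.3 CPM in the knockout mice, and S1-like nuclei 1.19 to 2.92 CPM over the 4 mice.

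Over the 12 class means of the control mice, *Cldn7* and *Cldn8* had the most similar patterns among the members (Pearson r = 0.965 on log2(CPM + 10)), followed by *Cldn4* with *Cldn7* (0.917) and *Cldn4* with *Cldn8* (0.905). The 12 classes share libraries and free RNA, and the values are a description. Among all 13265 genes compared, *Cldn8* was the gene most like *Cldn7*, and for *Cldn8* the order was *Mycbpap* (0.968), *Cldn7*, and *Lypd6b*. The genes most like *Cldn10* were *Car4* (0.950), a carbonic anhydrase of proximal tubule and thick ascending limb, *P2rx5*, and *Slc9a3* (0.866), the apical sodium-proton exchanger of the same segments. *Cldn16* was most like *Pla1a* (0.942) and *Enox1* (0.910), and *Cldn19* most like *Sim2* (0.902) and *Irx2*, both transcription factor genes. *Cldn4* was most like *Sesn3* (0.945), *Cldn2* most like 9030624G23Rik (0.931), *Cldn3* most like *Klhdc8a* (0.914), and *Cldn1* most like *Afap1* (0.925).

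*Cldn5* (chr16:18776847-18778262) was, among the broad classes, highest in podocytes, the filtration cells of the glomerulus. It stood at 558 and 647 CPM in the control mice and 644 and 506 CPM in the knockout mice, and 72.8% of 114 podocytes held a UMI. Endothelial nuclei held 70.3 and 116 CPM in the control mice and 66.7 and 59.8 CPM in the knockout mice. The endothelial level was uneven within the class. A *Sox17*- and *Slc14a1*-led cluster of 83 nuclei held 686 and 741 CPM in the control mice and 1244 and 755 CPM in the knockout mice, while the other 1296 nuclei held 13.9 to 24.1 CPM in the 4 mice. The genes most like *Cldn5* over the classes were *Sema3g* (0.980), *Podxl* (0.980), the podocyte surface sialomucin gene, and *Npr3*.

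*Cldn1* (chr16:26356645-26371839) had a control mean under 14 CPM in every broad class, with the highest in podocytes (8.71 and 19.03 CPM in the control mice, from 5 UMIs over the 4 mice). It had 457 UMIs in all nuclei, 312 of them in the proximal tubule at 4.79 to 9.501 CPM. Its highest values lay outside the named classes. Inside a cluster with markers of several classes, a group of 56 nuclei led by *C3* and *Vcam1* held *Cldn1* at 315 and 284 CPM in the control mice and 203 and 148 CPM in the knockout mice, from 45 UMIs, with a UMI in 33.9% of nuclei. A second group of 35 nuclei led by *Ncam1* and *Akap12* held 90.0 CPM over all mice, from 7 UMIs.

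Of 14 other claudin genes listed, 13 were in the matrices. *Cldn12* was spread over all 12 broad classes with control means from 11.95 to 26.9 CPM. In the proximal tubule, where it had 1133 UMIs, it was 23.8 and 29.5 CPM in the control mice and 20.6 and 27.4 CPM in the knockout mice. *Cldn15* was the endothelial claudin with an even level, at 103 and 138 CPM in the control mice and 96.4 and 136 CPM in the knockout mice, and over all mice it was 112 CPM in the larger and 131 CPM in the smaller endothelial cluster. *Cldn11* was found in interstitial nuclei at 96.1 and 102 CPM in the control mice and 61.3 and 27.9 CPM in the knockout mice, from 40 UMIs. *Cldn18* reached 9.7 CPM at most in the proximal tubule and *Cldn23* was 31.6 and 36.5 CPM in the deep medullary pelvic epithelium of the control mice. Of the partners of claudins, *Epcam*, which binds and stabilizes *Cldn7* protein, was the highest of its list in principal cells at 1050 and 1407 CPM in the control mice and 1029 and 1396 CPM in the knockout mice. The junction adhesion gene *F11r* (213 CPM) and the scaffold gene *Magi1* (648 CPM) had the highest control means of their lists there.

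The comparison of knockout with control asked whether loss of the transcription factor in the collecting duct changes claudin transcripts there or elsewhere. None of the 10 claudins changed by the test in any class. With edgeR's quasi-likelihood test, adjusted over all genes by Benjamini-Hochberg, 0 of 89 tests of a claudin in a class or subcluster were called at an adjusted p under 0.05, 3 of the 89 had an unadjusted p under 0.05, and DESeq2 gave the same counts, 0 and 3. The 3 of edgeR were *Cldn8* in the *Aqp3*-high subcluster, *Cldn8* in the connecting tubule, and *Cldn7* in the thick ascending limb. DESeq2 had *Cldn8* in the proximal tubule in place of the connecting tubule. Of all genes tested in a class or subcluster, 1.86% to 4.66% had an unadjusted p under 0.05 by edgeR, and 0.278% to 2.18% by DESeq2. Few genes of any kind were called in these classes. The called share of all genes tested was 0% in principal cells, connecting tubule, deep medullary epithelium of the pelvis, distal convoluted tubule, immune cells, intercalated cells, interstitium, podocytes, and thin limb, 0.0252% in endothelium, 0.00563% in the proximal tubule, 0.0135% in the thick ascending limb, 0.0684% in the *Aqp3*-high subcluster, and 0.0083% in inner medullary principal cells. In simulated counts of these libraries the changed genes were drawn from those with at least 100 UMIs. A 2-fold change was recovered for 9 of 100 such genes in principal cells and 30 of 100 in the *Aqp3*-high subcluster. For a 4-fold change these counts were 86 and 94, so 2-fold changes were mostly missed in the simulated counts. The simulation gave all genes of a class the same dispersion and, apart from the set changes, all mice the same expected levels. Recovery in the real counts can therefore differ. In the *Aqp3*-high subcluster only *Cldn7* (299 UMIs) and *Cldn8* (505 UMIs) reached that depth, and recovery for sparser claudins was not simulated.

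**Figure D4:**
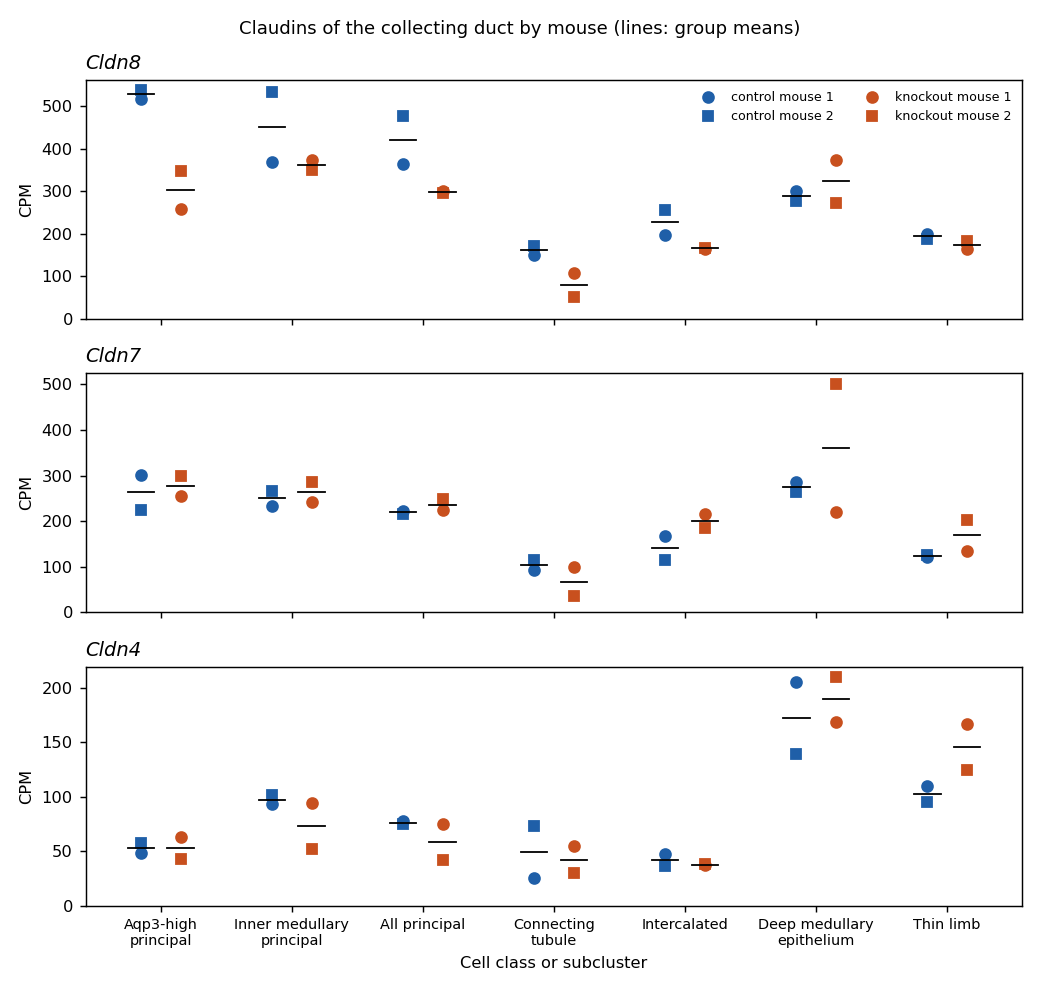
Levels of *Cldn8*, *Cldn7*, and *Cldn4* in CPM (vertical axes, from 0) in principal cell subclusters and neighbouring classes, 1 point per mouse, with lines at the group means. In the *Aqp3*-high subcluster both knockout points of *Cldn8* (258 and 348) are below both control points (518 and 538), and those of *Cldn7* overlap.

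The lowest unadjusted p belonged to *Cldn8* in the *Aqp3*-high subcluster, principal cells with high levels of the basolateral water channel gene *Aqp3* (60 and 130 nuclei of control mice and 96 and 43 of knockout mice). The *Cldn8* level was 518 and 538 CPM in the control mice and 258 and 348 CPM in the knockout mice, with no overlap. The log2 fold change was -0.86 ± 0.28 (SE), with an unadjusted p of 0.00526 and an adjusted p of 0.657 by edgeR. In this subcluster 16.1% of all genes tested had both knockout values below both control values. With nuclei under 1% mitochondrial UMIs alone the log2 fold change was -0.53, but that setting left only 6 nuclei in control mouse 1. The other mice kept 98 (control 2), 57 (knockout 1), and 43 (knockout 2). Over all alternatives the log2 fold change was -1.05 to -0.53. *Cldn7* in the same nuclei was 302 and 224 CPM in the control mice and 255 and 298 CPM in the knockout mice, with overlapping groups, and its log2 fold change was 0.05 ± 0.28. The *Cldn3* and *Cldn4* log2 fold changes there were -0.07 ± 0.50 and 0.02 ± 0.42.

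Some marker lists of other classes also differed between the groups in these nuclei, and others did not. The sums of the distal convoluted tubule (3 of 6 higher, 1 lower) and proximal tubule lists (2 of 9 higher) overlapped. So did those of the dividing, endothelial, immune, interstitial, and podocyte lists. Of all genes tested in the subcluster, 16.5% were higher and 16.1% lower without overlap. *Scnn1g* is on both the connecting tubule and the principal cell list. The 6 connecting tubule markers summed to 911 and 918 CPM in the control mice and 2228 and 1725 CPM in the knockout mice, with 3 of 6 higher without overlap and none at 0. The 8 thick ascending limb markers summed to 4048 and 1481 CPM and to 1003 and 710 CPM, with 7 of 8 lower without overlap and none at 0. The 9 principal cell markers summed to 18230 and 17002 CPM and to 16719 and 16688 CPM, with 2 higher, 2 lower, and none at 0. The 8 intercalated cell markers summed to 609 and 218 CPM and to 186 and 71.0 CPM, with 5 lower and none at 0. The 8 thin limb markers summed to 2192 and 1364 CPM and to 1279 and 965 CPM, with 2 lower and none at 0. Most of that sum was *Cryab*, at 2048 and 1309 CPM in the control mice and 1186 and 916 CPM in the knockout mice. *Cryab* is also on the list of inner medullary collecting duct markers. It stood at 17127 and 8859 CPM in the inner medullary subclusters over all mice. Lists of parietal epithelium (2 of 6 lower, *Wt1* at 0) and deep medullary pelvic epithelium (1 of 6 lower, *Upk1b* and *Krt5* at 0) were also lower without overlap as sums, at 691 and 768 CPM against 489 and 483 CPM and at 24.0 and 22.6 CPM against 15.01 and 21.3 CPM. *Aqp2*, the vasopressin-regulated water channel gene, was 8619 and 8125 CPM in the control mice and 7484 and 7034 CPM in the knockout mice. The part of these markers in the *Cldn8* difference was not tested.

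*Cldn8* was lower without overlap in knockout mice in 5 of the 9 broad classes where it was tested and higher in 0. In principal cells as a whole, where 13.1% of all genes were lower without overlap, the log2 fold change was -0.52 ± 0.31 (SE). In the connecting tubule, with a background of 13.7%, the level was 150 and 171 CPM in the control mice and 108 and 50.8 CPM in the knockout mice. Its log2 fold change was -0.99 ± 0.37, with an unadjusted p of 0.0219 and an adjusted p of 1.0 by edgeR. The knockout mice differed from each other there, and the log2 fold change was -0.60 without knockout mouse 2 and -1.62 without knockout mouse 1. In intercalated cells, with 12.9% of all genes lower, it was -0.44 ± 0.31. In the thin limb (14.3%) it was -0.19 ± 0.33. In the proximal tubule (14%), where *Cldn8* was only 4.29 and 6.56 CPM in the control mice and 3.39 and 1.28 CPM in the knockout mice, it was -1.18 ± 0.52, and free RNA held 40.5 to 113 CPM of *Cldn8*. Deep medullary epithelium of the pelvis gave 0.20 ± 0.33 and inner medullary principal cells -0.34 ± 0.32, each with overlapping groups. The classes come from the same 4 mice and are not independent of each other.

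**Figure D5:**
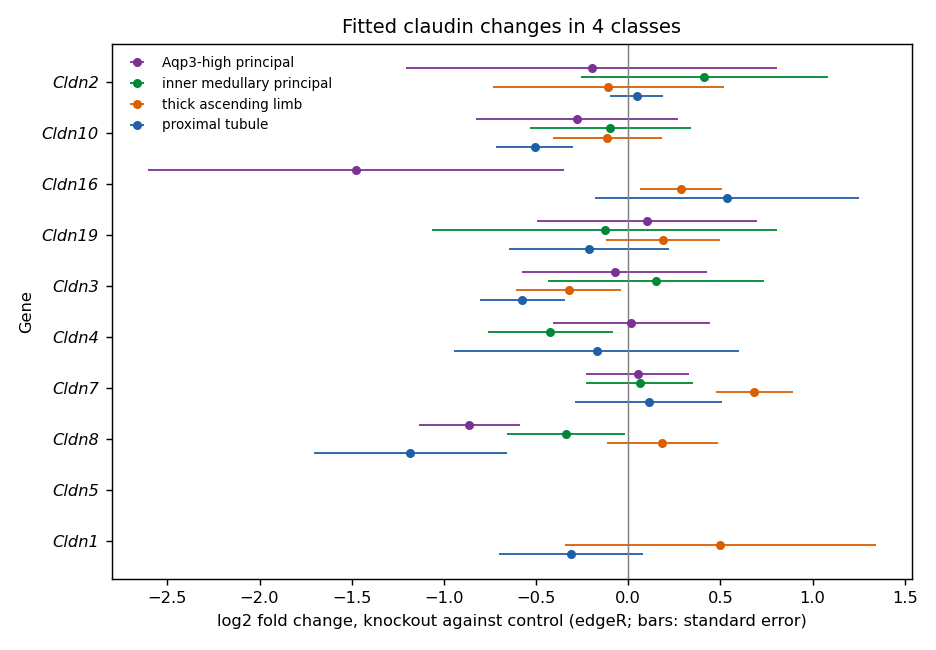
log2 fold change of each claudin (rows), knockout against control (horizontal axis), with standard error bars, in the *Aqp3*-high and inner medullary principal cells, thick ascending limb, and proximal tubule; a gene with too few UMIs in a class has no point. The *Cldn8* points of both principal cell groups lie left of 0, at -0.86 and -0.34, that of the thick ascending limb lies right of 0, and no point passed the adjusted threshold.

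*Cldn7* in the thick ascending limb, a segment that does not come from the ureteric bud, was 49.2 and 44.3 CPM in the control mice and 78.2 and 73.3 CPM in the knockout mice. The groups did not overlap, and 14.6% of all genes were higher without overlap there. Its log2 fold change was 0.68 ± 0.21 (SE), with an unadjusted p of 0.0119 and an adjusted p of 1.0 by edgeR, and it was 0.61 to 0.78 over the alternatives. Free RNA held 31.2 and 57.7 CPM of *Cldn7* in the control libraries and 27.8 and 97.9 CPM in the knockout libraries. The other claudins of this segment had smaller log2 fold changes, 0.19 ± 0.31 for *Cldn19*, 0.29 ± 0.22 for *Cldn16*, and -0.11 ± 0.30 for *Cldn10*. Over the 8 members tested in the class the median was 0.19, beside 0.00 for all genes tested.

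In the proximal tubule *Cldn10* was lower in both knockout mice (436 and 346 CPM) than in both control mice (490 and 614 CPM), with a log2 fold change of -0.51 ± 0.21 and an unadjusted p of 0.0543 by edgeR. *Cldn2*, the other claudin of that segment, had a log2 fold change of 0.05 ± 0.14, with overlapping groups. *Cldn5* in podocytes was -0.10 ± 0.38. Among the other tight junction genes none was called by edgeR. The counts were 0 of 142 tests of partners and regulators of claudins (6 with an unadjusted p under 0.05), 0 of 27 of other claudins (2), 0 of 104 of other tight junction proteins (5), and 0 of 176 of scaffold and polarity proteins (8). Over all genes the share with such an unadjusted edgeR p was 1.86% to 4.66% per class or subcluster.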

How the data were processed

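Kidney nuclei of 4 mice were profiled with 10x Chromium 3′ libraries. The authors aligned reads to mouse mm10 and counted UMIs with Cell Ranger 3.0.2, and deposited raw counts for every barcode, empty droplets included (per the labels and the methods). Whether introns were counted, and the annotation release, are not given in the sources used here. The submitters' processing notes also name Seurat 3.2.1.35.

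Per library, the 10000 barcodes richest in UMIs were taken, and those stayed that had 500 to 4000 genes and under 5% mitochondrial UMIs. Integration and clustering used Seurat 5.3.0 in R 4.3.3, without any *Cldn* gene, at a resolution of 0.5. A cluster took a class name with at least 3 markers of that class. Doublets called with scanpy 1.11.5 (236 to 512 per library) were kept and were left out in an alternative. Free RNA was read from barcodes with up to 100 UMIs. Shares of nuclei with a UMI and the upper limit for a count of 0 (3 counts) cover counting error only.

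UMIs were summed per mouse and class. Each gene reaching 10 UMIs over all 4 mice entered the edgeR 4.0.16 test (TMM, quasi-likelihood F test, genotype only, Benjamini-Hochberg adjustment over all genes of the class), and DESeq2 1.42.0 was an alternative. The study tested pooled nuclei; nuclei of 1 mouse are not replicates, so sums were tested here. The fits were tested on simulated data. The *Aqp3*-high, inner medullary, and cortical groups are subclusters of principal cells, and a further 2 subclusters with mixed markers were left out of the subcluster results. Co-detection and cluster differences used exact sign-flip tests over 4 mice.

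Named genes were the 10 claudins, other claudins with at least 20 UMIs in a class, the 2 highest genes of each list in control principal cells (1 is not reported here), and for each claudin the 3 genes with the highest Pearson r on log2(CPM + 10) over classes, among genes with at least 100 UMIs. Genes naming clusters were chosen after their values were seen. The members and lists were chosen with earlier results of these data known. Further alternatives were no TMM, other count filters, a replicate block, each mouse left out, nuclei under 1% mitochondrial UMIs, free RNA subtracted, resolution 0.8, *Cldn* genes kept, thinning to 1000 UMIs, and, chosen after seeing the data, co-detection within each large thick ascending limb cluster.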

Additional observations from a re-analysis of the deposited data

Results flagged for a closer look

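*Cldn3* and *Cldn4* drew attention because every knockout mouse lay on one side of every control mouse in one class and on the other side in another, and the difference between classes was not tested. Such separation was common: of all genes tested, 14.0% were higher and 13.1% lower without overlap in principal cells, 14% lower in the proximal tubule, 14.9% lower in the thick ascending limb, and 14.2% higher in the thin limb. The ratio of the knockout mean to the control mean of *Cldn3* was 1.16 in principal cells (24.8 and 27.3 CPM in the control mice, 28.1 and 32.3 CPM in the knockout mice), 0.675 in the proximal tubule, and 0.810 in the thick ascending limb. For *Cldn4* it was 1.42 in the thin limb (110 and 95.2 CPM in the control mice, 167 and 124 CPM in the knockout mice) and 0.763 in principal cells, where knockout mouse 1 (74.61 CPM) nearly equalled control mouse 2 (74.62 CPM). None of these passed edgeR's quasi-likelihood test after Benjamini-Hochberg adjustment (adjusted p from 0.99968 to 0.999722).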

How the results depend on the processing

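Of the alternatives run, 1 gave a called claudin. With the replicate number as a block, 1 of the 89 tests was called, *Cldn8* in the *Aqp3*-high subcluster with a log2 fold change of -0.85 and an adjusted p of 0.0221 by edgeR, against 0.273 to 1.0 over its other alternatives. Nothing in the labels says that mice with the same number share a batch, and with 2 pairs the block cannot decide it. Same-numbered libraries were alike in total UMIs, with 42138345 (control 1) and 44964099 (knockout 1) against 24998797 (control 2) and 22179410 (knockout 2). Their median mitochondrial shares were 1.66% and 1.05% against 0.671% and 0.417%. Whether the mice are paired was not tested. Deviations of same-numbered mice correlated at 0.0702 to 0.582 over the 14 classes and subclusters. Leaving out each mouse gave 0 called claudins each time.

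The highest class was kept by 10 of 10 claudins under 4 alternatives and by 9 with *Cldn* genes kept in clustering or without either control mouse. *Cldn1* moved to interstitium with *Cldn* genes kept and without control mouse 2, and *Cldn19* to thin limb without control mouse 1. The number of claudins moving the same way between the thick ascending limb clusters in all mice was 3 to 5 with 1 mouse left out, and 5 without control mouse 2, where fewer mice have to share a direction. The log2 odds ratio of *Cldn10* with *Cldn16* stayed negative in all alternatives, from -1.90 to -0.81. Some uncalled values changed sign. *Cldn10* with *Cldn19* was -0.15 after thinning, and *Cldn16* with *Cldn19* was -0.28 (from 0.46) under 1% mitochondrial UMIs, where control mouse 1 had 57 thick ascending limb nuclei. *Cldn19* between the clusters was -0.0027 with *Cldn* genes kept, -0.085 without control mouse 2, and -0.035 without knockout mouse 1, in a range of -0.085 to 0.15 over the mice left out; the cause was not tested. Immune nuclei were too few to fit under 1% mitochondrial UMIs. Depth limits the rest: *Cldn1*, *Cldn5*, and *Cldn14* had few UMIs, and 2-fold changes in principal cells were mostly missed in simulated counts.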
